A study of Saccharomyces cerevisiae with 3 samples.

Results

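Peroxisomes are organelles bounded by a single membrane in which yeast cells break down fatty acids and hydrogen peroxide. Their matrix proteins are made in the cytosol and carried in fully folded by cycling receptors, with the help of the peroxins, the proteins encoded by the PEX genes. Other peroxins insert membrane proteins, set the number and size of the organelles, and drive their division, while a few proteins that are not peroxins retain peroxisomes in the mother cell or move them into the bud. In budding yeast the enzymes of the organelle are induced strongly by fatty acids and repressed by glucose.

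The genes described here were chosen by name. They are the Saccharomyces cerevisiae probe sets annotated as PEX followed by a number, with 5 further genes of peroxisome maintenance, INP1, INP2, VPS1, DJP1 and ANT1. This gave 30 genes, each with 1 probe set, of 5449 genes tested through 5498 probe sets. Of 29 PEX genes that RefSeq lists, 25 were among them, and the others were not analysed here. The members lie on 14 chromosomes, and no member overlaps another gene in the RefSeq gene table of assembly R64.

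The RNA is described as that of untreated haploid yeast that had reached stationary phase at 30 °C in synthetic medium. It was hybridized to single-colour Affymetrix arrays. Of the 3 arrays, 2 are labelled RPA12 deletion and 1 is labelled wild type. The product of RPA12 belongs to RNA polymerase I, which makes ribosomal RNA. All 3 arrays are labelled BY4741, a MATa strain carrying his3Δ 1, leu2Δ 0, met15Δ 0 and ura3Δ 0. By these labels the wild type shares the alleles, but the MET17 values below differ between the groups. The growth protocol of the wild-type array also names cells without RPA12, and its genotype label was followed. The title of this array, unlike the others, names no medium or growth phase. Whether the 2 arrays labelled RPA12 deletion came from separate cultures or clones is not stated, so the p-values speak only of the spread between this pair, which may be technical.

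Some checks went against the labels and others did not. RPA12 itself had log2 values of 5.74 and 5.79 where labelled RPA12 deletion, against 3.60 in the wild type. Among the other genes listed as deleted, MET17 (listed as met15Δ 0) read 9.43 and 9.36, against 1.56, and HIS3 9.27 and 9.30, against 6.73. HIS1, HIS2, HIS4, HIS5, HIS6 and HIS7 also lay higher, by 1.74 to 4.47, so HIS3 alone is no check of the labels. LEU2 and URA3 were low on every array, at 1.25 to 1.91. LYS2, which is not among the listed deletions, read 1.42 and 0.97, not above background, against 6.08 in the wild type. All 3 marker genes of α cells rose, among them STE3 (6.89 and 6.81, against 2.11). Of 4 marker genes of a cells, HMRA1 (1.25 and 1.09, not above background, against 7.41) and MFA2 (6.01 and 6.10, against 8.26) fell, and MFA1 and STE2 differed by -0.60 and 0.76 and were not called. Spike-in transcripts added before labelling differed as well, with a median difference of -3.81 over 36 probe sets, so the processing of the arrays cannot be told apart from the groups. For 7 yeast control genes with probe sets at both transcript ends, the median difference was 0.12 at the 3′ end and -0.35 at the 5′ end, a sign of RNA quality whose part in the results was not tested. The arrays are therefore called by their labels throughout, and every direction below rests on those labels. Whether labels are exchanged or an array holds another strain was not tested. MET17, LYS2 and several marker genes of mating type differed between the groups. Strain and mating type can therefore not be told apart from the labelled deletion in any difference below. With the groups exchanged, every rise below would be a fall and every fall a rise.

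Values are the authors' log2 RMA summaries, and each difference is the average over both arrays labelled RPA12 deletion with the wild-type value subtracted. A gene is said to have risen or fallen only where limma's adjusted p was under 0.05 and the difference reached 2-fold. The minimum fold is needed because many values are exactly equal. On the 2 arrays labelled RPA12 deletion 44.2% of the tested probe sets had the same value to every deposited digit, and 19 of the 30 members did (63.3%). The 5498 tested probe sets shared only 2250 distinct values on replicate 1 of the arrays labelled RPA12 deletion, against 4384 on the wild-type array. PEX4 and INP1, for example, both read 3.31 on each array labelled RPA12 deletion, equal to the last digit. For every member equal on both of these arrays limma used the same standard error, 0.00014. The small adjusted p-values of such members, among them PEX18, PEX17, PEX27 and INP2 below, therefore stem from that equality. Limma's adjusted p alone was under 0.05 for 27 of 30 members (90%) and for 80.2% of all tested probe sets, down to a difference of 0.0044 in DJP1.

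Changes among the members went both ways and touched single genes in most roles. PEX27, PEX32, ANT1 and PEX17 rose, PEX18, VPS1, PEX22, PEX30 and INP2 fell, and the other 21 did neither. These 9 genes are 30% of the members, beside 34.0% of all tested probe sets. The 4 rises are 13.3% of the members, beside 23.8% of all tested probe sets, and the 5 falls are 16.7%, beside 10.2%. The share of members called in the deposited values is thus close to that of the whole array. After another quantile normalization 18.3% of all tested probe sets rose and 14.1% fell, and after median centring 18.8% rose and 14.8% fell. The same 5 members fell under both, and PEX27 and PEX32 rose. As deposited, the median difference was 0.0022 over the members and 0.19 over all tested probe sets. In these values 15 members lay above 0, 14 below and PEX4 at 0. The members' median becomes -0.11 after another quantile normalization and -0.25 after median centring, so its sign is not settled. In an extract of a whole culture, a large change in some cells and a smaller one in all cells cannot be told apart.

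**Figure D1:**
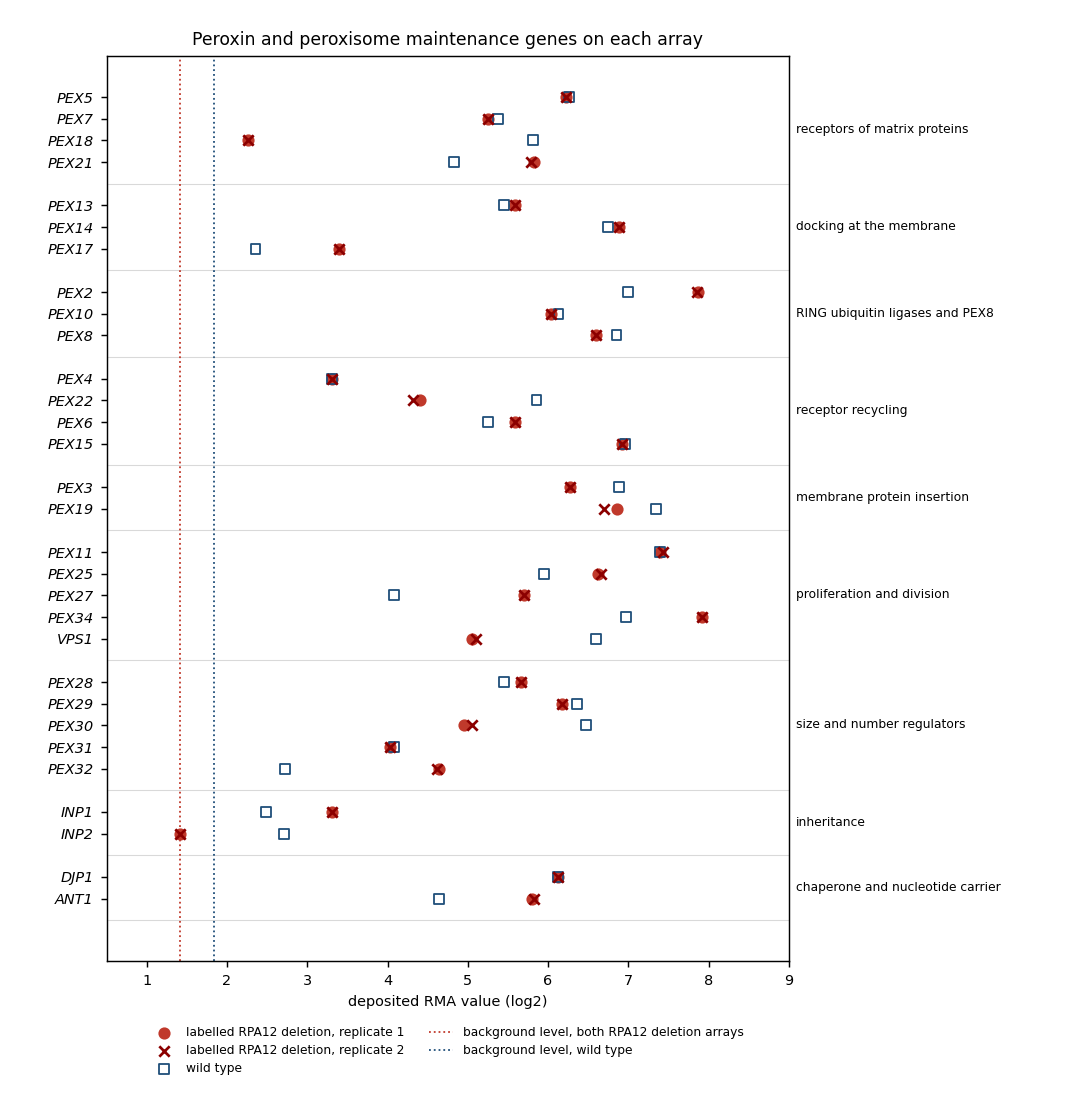
Deposited RMA values (log2, horizontal axis) of the 30 members on each array, grouped by role. Filled circles and crosses are replicates 1 and 2 labelled RPA12 deletion, open squares are the wild-type array, and dotted lines are the background levels. The crosses lie on or close to the circles in every row, at most 0.15 apart, while PEX18 differs by -3.56 from its wild-type value and PEX32 by 1.91.

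The receptors of matrix proteins differed from one another more than any other role. PEX18 encodes a co-receptor that works with Pex7 to import proteins bearing the amino-terminal signal PTS2. It read 2.26 on both arrays labelled RPA12 deletion, against 5.81 on the wild-type array. It fell 11.8-fold (limma adjusted p = 9.2e-05), and only 44 of the 5498 tested probe sets had a lower difference. Its values on the arrays labelled RPA12 deletion were low but above their background level of 1.42. PEX21, which encodes the other PTS2 co-receptor and can stand in for PEX18, read 5.83 and 5.78, against 4.83. Both of its arrays labelled RPA12 deletion lay above the wild type, by 0.97 on average (limma adjusted p = 0.0159), just under the 2-fold minimum. The difference of PEX21 was 0.69 after another quantile normalization and 0.72 after median centring. The genes of these alternative co-receptors thus lay on opposite sides of the wild type, but only PEX18 was called.

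The receptors themselves were close to the wild type. PEX7, the PTS2 receptor, read 5.25 on both arrays labelled RPA12 deletion, against 5.37. PEX5, the receptor of the carboxy-terminal signal PTS1, read 6.23 on both, against 6.26. The difference was -0.12 for PEX7 and -0.036 for PEX5, so among the measured receptors and co-receptors PEX18 was the one member called.

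In the docking complex, on which loaded receptors settle at the peroxisome membrane, the accessory subunit stood apart. PEX13 read 5.59 on both arrays labelled RPA12 deletion, against 5.45 on the wild-type array. PEX14 read 6.88 on both, against 6.75. The differences of these core subunits were each 0.13, and those of PEX13 under both other scalings, and of PEX14 under median centring, have the opposite sign. PEX17 read 3.40 on both, against 2.35, and rose 2.06-fold (limma adjusted p = 9.2e-05). The rise of PEX17 is not kept at 2-fold under another scaling, since its difference of 1.05 became 0.42 after another quantile normalization and 0.80 after median centring.

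The ubiquitin ligase genes were unequal. PEX2 and PEX10 encode RING proteins that help to attach ubiquitin to the receptors, and Pex8 joins this complex to the docking complex. PEX2 read 7.86 on both arrays labelled RPA12 deletion, against 6.99, a difference of 0.87 that stays under 2-fold. PEX10 read 6.04 on both, against 6.13, and PEX8 read 6.59 on both, against 6.85. None of the 3 measured genes was called.

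The receptor recycling genes held 1 fall. PEX22 anchors the ubiquitin-conjugating enzyme Pex4 at the membrane, and this pair marks receptors for return to the cytosol. PEX22 read 4.41 and 4.32 where labelled RPA12 deletion, against 5.86 on the wild-type array. It fell 2.82-fold (difference -1.49, limma adjusted p = 0.0190). PEX4 read 3.31 on all 3 arrays, a difference of 0, which became -0.79 after another quantile normalization. The fall of PEX22 stood under every scaling, whereas the value of its partner PEX4 depended on the scaling. Pex6 is an AAA ATPase of the motor that extracts the receptors, held at the membrane by Pex15. PEX6 read 5.59 on both arrays labelled RPA12 deletion, against 5.25, and PEX15 read 6.92 on both, against 6.96. Neither was called.

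Both genes of membrane protein insertion lay moderately lower. PEX3 encodes the membrane anchor and PEX19 the soluble receptor for newly made peroxisomal membrane proteins, and cells lacking either have no recognizable peroxisomes. PEX3 read 6.28 on both arrays labelled RPA12 deletion, against 6.89, a difference of -0.61. PEX19 read 6.85 and 6.70, against 7.34, a difference of -0.56 (limma adjusted p = 0.100). These differences keep their sign under every scaling tried, but neither reached 2-fold. The gap of 0.15 between the 2 arrays for PEX19 is the widest among the members.

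Genes of proliferation and division went both ways. The family of PEX11, PEX25 and PEX27 encodes related membrane proteins that elongate and divide peroxisomes. PEX27 read 5.70 on both arrays labelled RPA12 deletion, against 4.08 on the wild-type array. It rose 3.09-fold (difference 1.63, limma adjusted p = 9.2e-05) and stayed above 2-fold at 1.17 and 1.38 under the other scalings. PEX25 read 6.63 and 6.66, against 5.95, a difference of 0.69 (limma adjusted p = 0.0139), under 2-fold. PEX11, the most abundant peroxin of the membrane and one of the peroxins known to be induced by oleate, read 7.40 and 7.44, against 7.40. Its difference of 0.018 did not pass (limma adjusted p = 0.661), so the 3 related genes covered a range from equality to a 3.09-fold rise.

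The other division genes lay on opposite sides. PEX34 acts with the PEX11 family in setting peroxisome number. It read 7.91 and 7.92 where labelled RPA12 deletion, against 6.97, a difference of 0.94 that misses 2-fold. VPS1, a dynamin-like GTPase that severs peroxisomes and also serves vacuolar protein sorting, read 5.05 and 5.10, against 6.60. It fell 2.88-fold (difference -1.53, limma adjusted p = 0.0107). The 2 arrays labelled RPA12 deletion lay 0.050 apart for VPS1, a gap that may be technical, and no spread of the wild type is known.

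The regulators of peroxisome size and number held a rise and a fall. PEX28, PEX29, PEX30, PEX31 and PEX32 encode related membrane proteins, several of them found in the endoplasmic reticulum. PEX32 read 4.64 and 4.61 where labelled RPA12 deletion, against 2.72 on the wild-type array. It rose 3.75-fold (difference 1.91, limma adjusted p = 0.0055), and 513 of the tested probe sets had a higher difference. Under another quantile normalization the difference of PEX32 shrank to 1.20, still above 2-fold. PEX30, which shapes the endoplasmic reticulum where new peroxisomes and lipid droplets form, read 4.96 and 5.06, against 6.47. It fell 2.76-fold (difference -1.47, limma adjusted p = 0.0223), and 345 tested probe sets had a lower difference.

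The remaining regulators of this set were near the wild type. PEX28 read 5.66 on both arrays labelled RPA12 deletion, against 5.45. PEX29 read 6.17 on both, against 6.36, and PEX31 read 4.03 on both, against 4.08. The difference of PEX28 was 0.21 and became -0.035 after median centring. PEX31 depended more on the scaling, at -0.058 as deposited and -0.73 after another quantile normalization.

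The inheritance genes had low values on all 3 arrays. INP2 encodes the peroxisomal receptor for the myosin motor that carries the organelle into the bud. It read 1.42 on both arrays labelled RPA12 deletion, exactly at their background level, against 2.71 on the wild-type array. INP2 was thus not above background where labelled RPA12 deletion and fell at least 2.44-fold (limma adjusted p = 9.2e-05). Its wild-type value was itself low, beside a background level of 1.84 on that array. HO, AIM3 and ECM27 had the same difference as INP2, -1.29, equal in every digit given. Every other member was above the background level on each array. INP1, which tethers peroxisomes in the mother cell, read 3.31 on both, against 2.49. Its difference of 0.82 became 0.14 after another quantile normalization.

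Of the chaperone and the carrier, only the carrier gene was called. ANT1 encodes the membrane carrier that brings ATP into peroxisomes, where it is used to activate fatty acids. It read 5.79 and 5.82 where labelled RPA12 deletion, against 4.64 on the wild-type array. ANT1 rose 2.24-fold (difference 1.16, limma adjusted p = 0.0069), but its difference was 0.84 after another quantile normalization and 0.91 after median centring, both under 2-fold. DJP1, a cytosolic J-domain chaperone that aids import, read 6.13 on both, against 6.12, and was not called.

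**Figure D2:**
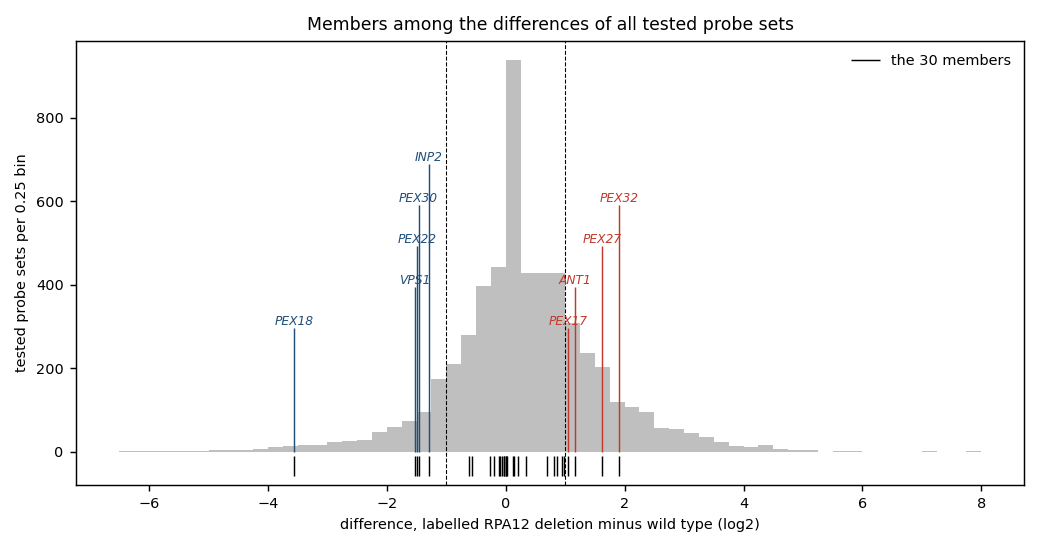
Histogram of the differences of all 5498 tested probe sets (log2, labelled RPA12 deletion minus wild type), with a tick under the axis for each of the 30 members and a labelled line for each of the 9 called. Dashed lines mark 2-fold. PEX18 lies in the far lower tail, whereas the 4 members that rose lie within the shoulder of the distribution.

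Members close to equality were common in the deposited values. Within 0.25 of 0 lay 12 members (40%), beside 25.1% of all tested probe sets. After another quantile normalization these shares were 33.3% and 22.3%, and after median centring 23.3% and 24.9%. A greater share of nearly equal members was therefore seen under some scalings and not under median centring.

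**Figure D3:**
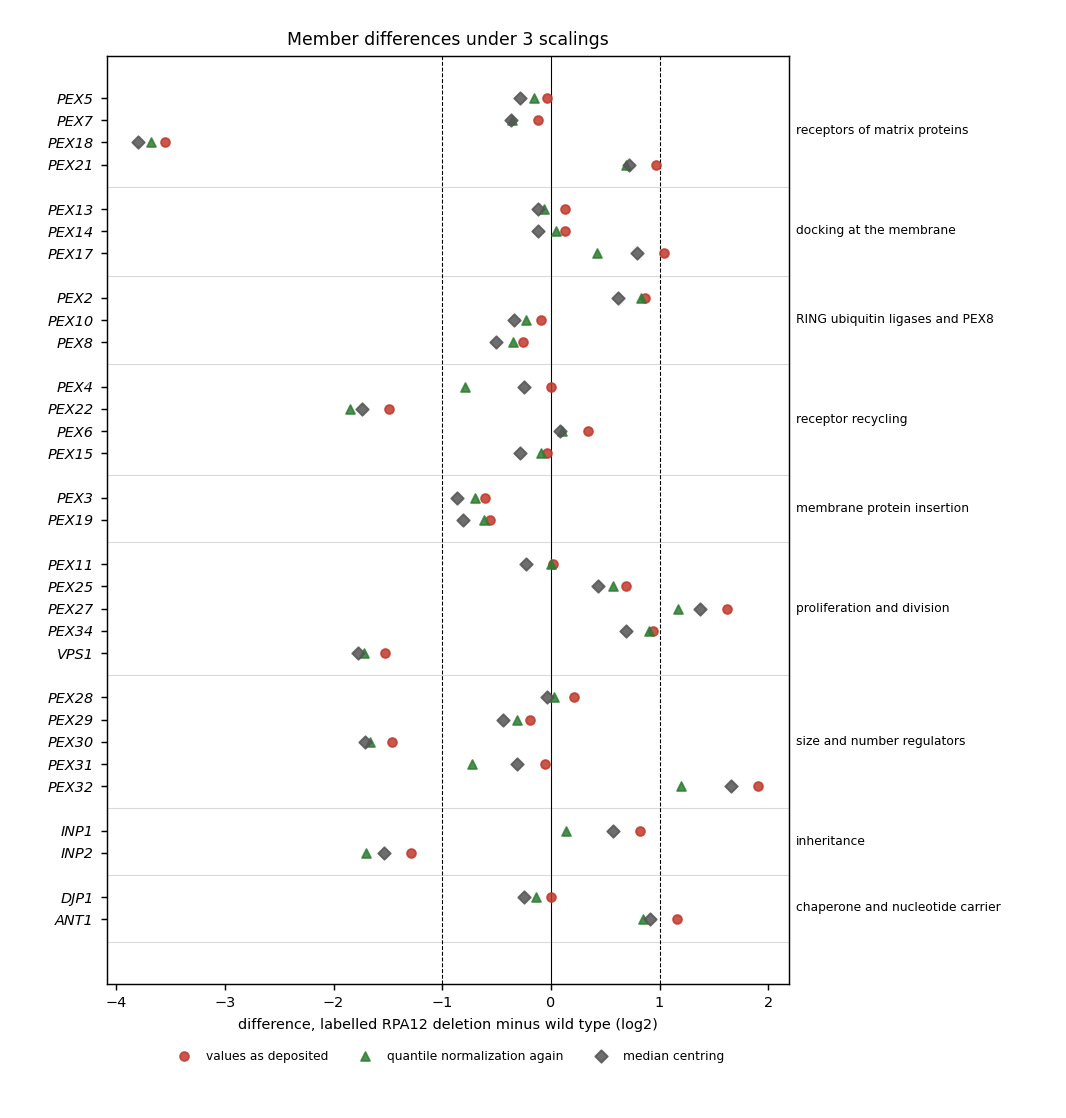
Difference of each member (log2, labelled RPA12 deletion minus wild type) in the deposited values (circles), after another quantile normalization (triangles) and after median centring (diamonds). Solid and dashed lines mark 0 and 2-fold. PEX18, PEX22, VPS1, PEX30, INP2, PEX27 and PEX32 stay beyond 2-fold under all 3, while PEX17 and ANT1 do not. After another quantile normalization PEX4 lies at -0.79, PEX31 at -0.73 and INP1 at 0.14.

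Genes next to the called members were called in both directions. The 9 called members had 16 measured neighbours in the gene table, of which 2 were called in the same direction, 4 in the opposite direction and 10 not at all. The share called was 37.5%, beside 34.0% of all tested probe sets. PEX22 lies beside ACS1, an acetyl-CoA synthetase gene, which fell with a difference of -2.17. VPS1 lies beside MET14, of sulphate assimilation, which rose with a difference of 3.05. ANT1 lies between YPR127W and SCD6, whose differences were -2.77 and -1.36, so its rise stood between a pair of falls. PEX18 lies between TDA11 and YAP1801, which were close to equal at 0.24 and -0.099.

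Genes of peroxisomal enzymes and their accessory proteins were set beside the members. These lists, like the members, were chosen with earlier results of these data known. Of 14 genes of β-oxidation and its accessory enzymes, 9 fell, none rose, and the median difference was -2.14. The falls are 64.3% of this list, beside 10.2% of all tested probe sets, while 23.8% of those rose. Their number lay between 7, with the robust form of limma, and 12, under both other scalings. POT1, the thiolase imported through PTS2, read 4.39 and 4.72 where labelled RPA12 deletion, against 8.69. POX1, acyl-CoA oxidase, read 3.57 and 3.98, against 7.00, and CTA1, the peroxisomal catalase, read 4.57 and 4.84, against 8.07. PXA1, a subunit of the fatty acid importer, read 5.37 and 5.42, against 7.90. All 4 fell (limma adjusted p between 0.0066 and 0.0428), although POX1 no longer passed with the robust form of limma (adjusted p = 0.0641). PXA2, also on this list, read 5.59 on both arrays labelled RPA12 deletion, against 5.97, and was not called.

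Other matrix cargo was mixed. Of 12 genes, 6 fell, none rose, and the median difference was -0.66. The falls are 50% of this list, beside 10.2% of all tested probe sets, while 23.8% of those rose. Their number was 5 after another quantile normalization and with the robust form of limma. MLS1, malate synthase, differed by -3.95, MDH2 by -3.31, CAT2, carnitine acetyltransferase, by -2.92 and GPD1, glycerol-3-phosphate dehydrogenase, by -1.71. The 4 genes passed (limma adjusted p between 0.0064 and 0.0374), though CAT2 not with the robust form (adjusted p = 0.0572). Some of these proteins, such as MDH2 and GPD1, work largely in the cytosol.

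Among the 4 oleate regulators, ADR1, an activator of glucose-repressed and peroxisomal genes, was the one that fell. It read 3.71 and 3.84 where labelled RPA12 deletion, against 6.22, a difference of -2.45 (limma adjusted p = 0.0171). OAF1 and PIP2, whose products form the oleate-responsive activator, differed by -0.55 and -0.31, and the repressor gene OAF3 by 0.83. None of these 3 was called. The single fall is 25% of this list, beside 34.0% of all tested probe sets called in either direction and 10.2% that fell.

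Of the 4 genes for fission proteins shared by peroxisomes and mitochondria, 1 rose. This is 25% of the list, close to the 23.8% of all tested probe sets that rose. FIS1, the membrane anchor, differed by -0.086, DNM1, a dynamin-like GTPase, by -0.73 and the adaptor MDV1 by 0.46, none of them called. CAF4, the other adaptor, read 5.71 on both arrays labelled RPA12 deletion, against 4.64, and rose 2.11-fold, but by only 0.75 and 0.82 on the log2 scale under the other scalings. DNM1 thus lay on the same side as the other dynamin-like gene, VPS1, but only VPS1 was called.

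Of 4 genes of pexophagy, the autophagy of peroxisomes, 1 fell. That is 25% of them, beside 34.0% of all tested probe sets called in either direction and 10.2% that fell. ATG36, the receptor that marks peroxisomes for autophagy, read 5.65 and 5.67 where labelled RPA12 deletion, against 7.09, and fell 2.70-fold (limma adjusted p = 0.0038). ATG11, ATG1 and ATG8, which also serve other forms of autophagy, differed by 0.17, -0.28 and -0.36 and were not called. Of 7 partners outside the organelle, RTN2, a reticulon of the endoplasmic reticulum, fell 11.2-fold and the others were not called. The share called was 14.3%, beside 34.0% of all tested probe sets called in either direction and 10.2% that fell. RTN1, the other reticulon gene, read 6.21 and 6.03, against 7.25, and missed the threshold (limma adjusted p = 0.0573). It passed under both other scalings, with differences of -1.20 and -1.38. MYO2, the motor bound by Inp2, differed by -0.17.

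**Figure D4:**
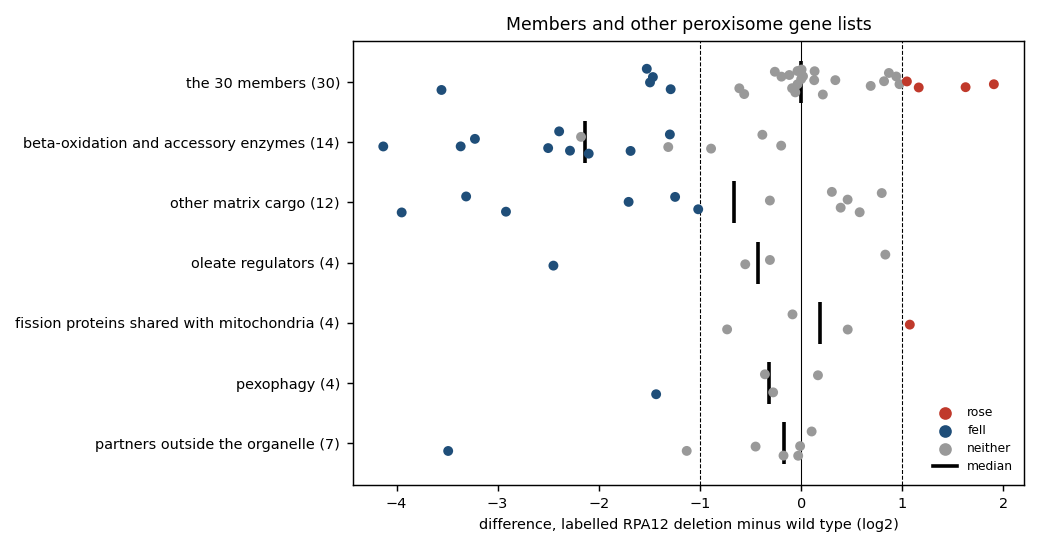
Differences (log2, labelled RPA12 deletion minus wild type) of the 30 members and of 6 other peroxisome lists, with the number of genes in brackets and each list's median as a black bar. Red points rose, blue points fell and grey points did neither, and vertical jitter has no meaning. The members centre on 0.0022, whereas the β-oxidation list centres on -2.14 with every gene below 0. Members and lists were chosen with earlier results of these data known.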

How the data were processed

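The authors deposited log2 values, 1 per probe set and array, and the submitters' processing notes name RMA and Affymetrix Expression Console. Versions and the arrays of each run are not stated in any label. RMA pulls the arrays of a run onto one distribution and compresses small differences near the floor. The values were used as they stand. Of 10928 probe sets, the 5498 with a single S. cerevisiae symbol were tested. The RefSeq gene table of assembly R64 supplied 12 newer symbols. The 1746 probe sets of the other yeast species on the array gave the background level, the value under which 95% of them lay, 1.42 for the arrays labelled RPA12 deletion and 1.84 for the wild type. Above it lay 29 members on both arrays labelled RPA12 deletion and 30 members in the wild type.

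Differences were tested two-sided with limma 3.58.1 (lmFit, then eBayes) under R 4.3.3, and p-values were adjusted by Benjamini-Hochberg over all 5498 probe sets, with 1 residual degree of freedom per probe set. The lone wild-type array is assumed to vary like the others, and no spread of the wild type is known. The number of arrays limits the precision. The script was tested on simulated data. Where several probe sets name a gene, the highest mean over the 3 arrays was used. The members and the lists were chosen with earlier results of these data known. Every member is accounted for. In the other lists up to 4 genes with the largest differences among those called are named, with all genes of lists of up to 4. MYO2, RTN1, PXA2 and the neighbouring genes were named after their values were seen. Promoter and protein comparisons were not run.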

Additional observations from a re-analysis of the deposited data

How the results depend on the processing

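No paired analysis was possible because the single wild-type array carries no replicate number. Among the 30 members, all 9 calls stood with dim probe sets left out, with an intensity trend in limma and with its robust form. These settings leave each member's difference unchanged, so no direction could turn under them. The 9 also stood without either replicate labelled RPA12 deletion, where 2-fold alone decided, and no direction turned. For the 19 members equal on both of those arrays, PEX17, PEX18, PEX27 and INP2 among them, that outcome was fixed in advance. Under both other scalings, 2 members in place of 4 were called higher, because PEX17 (0.42 after another quantile normalization, 0.80 after median centring) and ANT1 (0.84 and 0.91) were under 2-fold, while the 5 falls stood. The members' median difference became -0.11 and -0.25, and that of all tested probe sets 0.040 and -0.056. Signs turned for PEX13 (-0.066 and -0.12) and DJP1 (-0.13 and -0.25) under both, for PEX14 (-0.12), PEX11 (-0.23), PEX28 (-0.035) and ATG11 (-0.084) after median centring, and for MDV1 (-0.30) after another quantile normalization. The scalings also lower the higher share of all calls, 1310 against 562 lower, to 1008 against 773 and 1032 against 813. By limma's adjusted p alone 14 members were higher and 13 lower, with 2773 and 1634 of all tested probe sets, and at 1.5-fold 9 were higher and 6 lower, with 1926 and 886.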
